A study of Mus musculus with 6 samples.

Results

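The major histocompatibility complex (MHC) and antigen presentation genes were followed through 6 cell lines grown out of mouse liver tumors. The genes were every row of the deposited expression table whose symbol begins with H2-, the prefix of the mouse MHC, and *B2m*, *Tap1*, *Tap2*, *Tapbp*, *Nlrc5* and *Ciita*. They numbered 34 of the 21065 rows, 28 chosen by the prefix and 6 by name. The rule used symbols and no measured value, but the genes were chosen with earlier results of these data known. Of the 34, 31 lie on chromosome 17, while *B2m* lies on chromosome 2, *Nlrc5* on chromosome 8 and *Ciita* on chromosome 16.

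All lines came from female C57BL/6 mice, bought at 8 to 10 weeks of age, whose liver tumors had been started by hydrodynamic tail vein injection of a *Myc* transposon together with pX330, a plasmid for the transient expression of Cas9 and a guide RNA. The guide targeted *Trp53*, the gene of the tumor suppressor p53, in 3 lines (*Myc*; sg*Trp53*, labelled Myc;sgp53/Cas9) and *Kmt2c*, the gene of the histone methyltransferase MLL3, in the other 3 (*Myc*; sg*Kmt2c*, labelled Myc;sgMll3/Cas9). Every line therefore comes from a tumor that received *Myc* and a guide against a tumor suppressor, and no line with both *Trp53* and *Kmt2c* untargeted is compared here. The cells were untreated, grew on collagen-coated plates and were passaged until no fibroblasts could be seen. Lines are numbered as in the labels, and per the study's methods the lines of a genotype come from different mice. Expression is given as RPKM, the reads on a gene per kilobase of a listed transcript, scaled to the depth of the library, and the 3 values after a genotype are those of its lines 1, 2 and 3 in this order. The libraries held 3680068 to 6878625 reads on genes.

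*Trp53* RNA was at 17.2, 17.6 and 19.4 RPKM with sg*Trp53* and at 92.2, 124 and 121 RPKM with sg*Kmt2c* (adjusted p = 0.014, limma). *Kmt2c* RNA overlapped, at 24.2, 18.4 and 19.2 RPKM against 19.7, 24.97 and 9.51 RPKM. Reads summed over a whole gene do not show whether a small insertion or deletion was made by Cas9. Of the hepatocyte markers, albumin (*Alb*) lay between 0.644 and 4.36 RPKM in all 6 lines and *Afp* between 0.130 and 19.3 RPKM, so these secreted liver products were low, while the transcription factor *Hnf4a* ran from 0.629 to 1186 RPKM. The listed length of *Hnf4a* is 431 bases, against 2043 for *Alb* and 2086 for *Afp*, so its level against theirs depends on this length. The line sg*Kmt2c* 1 stood apart from the other 5: it had the lowest value for 35.9% of the 11617 genes tested and the highest for 23.6%. Because the samples are bulk RNA, fewer cells that express a gene and less RNA in each cell cannot be told apart.

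MHC class I molecules are heavy chains that leave the endoplasmic reticulum only when paired with a light chain, beta-2 microglobulin, and filled with a peptide. The proteasome cuts the peptides, the transporter made of TAP1 and TAP2 pumps them in, and tapasin holds the empty heavy chain at the transporter. Class II molecules are a separate pair of chains that professional antigen-presenting cells load in lysosomes. NLRC5 is the transactivator of class I genes and CIITA that of class II genes, and interferon gamma raises both. Hepatocytes normally carry little class I on their surface, and tumor cells without beta-2 microglobulin show almost none.

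The promoters of class I genes hold a kappa B site for NF-kappa B, a site for interferon regulatory factors (IRF), and a downstream module whose X2 part binds CREB and ATF factors and whose Y box binds NF-Y. The windows below are printed for the light chain, for both classical heavy chains and for *H2-M3*, since *B2m* and *H2-M3* were the tested genes whose genotypes did not overlap and the heavy chains are the partners of *B2m*. Each is the 250 bases before the RefSeq start of the gene in the GRCm38.p6 assembly, read 5′ to 3′ on the strand of the gene. Capitals mark matches, on either strand, to AANNGAAA (the IRF core), GGGATTCCC (kappa B), TGACG (part of X2) and CCAAT (Y box).
*B2m*, chr2:122147437-122147686, plus strand: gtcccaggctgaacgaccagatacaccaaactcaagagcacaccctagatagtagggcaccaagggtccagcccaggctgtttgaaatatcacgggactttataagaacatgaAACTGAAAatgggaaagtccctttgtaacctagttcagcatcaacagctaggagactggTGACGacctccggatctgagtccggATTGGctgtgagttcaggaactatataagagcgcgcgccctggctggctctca
*H2-K1*, chr17:34000334-34000583, minus strand: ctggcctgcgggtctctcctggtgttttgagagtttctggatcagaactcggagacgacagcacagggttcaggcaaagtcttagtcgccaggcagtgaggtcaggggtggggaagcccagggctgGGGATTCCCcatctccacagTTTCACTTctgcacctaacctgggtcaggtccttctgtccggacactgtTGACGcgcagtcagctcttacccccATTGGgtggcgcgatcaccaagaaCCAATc
*H2-D1*, chr17:35262844-35263093, plus strand: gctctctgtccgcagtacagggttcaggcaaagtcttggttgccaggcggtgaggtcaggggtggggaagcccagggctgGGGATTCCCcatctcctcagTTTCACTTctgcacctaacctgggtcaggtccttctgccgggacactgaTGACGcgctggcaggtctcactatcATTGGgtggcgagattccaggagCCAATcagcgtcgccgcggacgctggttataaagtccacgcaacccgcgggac
*H2-M3*, chr17:37269984-37270233, plus strand: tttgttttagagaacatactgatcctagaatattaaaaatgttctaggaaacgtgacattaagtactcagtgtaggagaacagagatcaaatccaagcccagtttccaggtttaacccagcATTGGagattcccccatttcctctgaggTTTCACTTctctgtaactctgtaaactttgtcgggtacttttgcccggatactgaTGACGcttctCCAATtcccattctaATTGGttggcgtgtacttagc

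All 4 windows held the IRF core, TGACG and CCAAT in the same order, with the IRF core farthest from the start of those 3 except in *H2-M3*, where an extra Y box match lay before it. *B2m* and *H2-M3* had none of the GGGATTCCC matches that *H2-K1* and *H2-D1* carried just before the IRF core. Only this exact string was searched, so a kappa B site of other letters would not be marked. *H2-K1* and *H2-D1* were 86.8% identical over 204 aligned columns, and their matches stood in the same order. The deposited table places the start of *H2-D1* at position 35262730, before this window, so the start used here is not the only one annotated. Promoters were matched for 24 of the 34 genes. Of these, 16 held the IRF core, 10 TGACG, 22 CCAAT and 4 GGGATTCCC, against 21.3%, 17.8%, 33.8% and 0.3% of 32851 promoter windows of the same length. The IRF core, TGACG and CCAAT occurred together in 9 of the 24, against 1.1% of all windows. The 9 were *B2m*, *H2-K1*, *H2-D1*, *H2-Q4*, *H2-Q7*, *H2-T22*, *H2-M3*, *H2-M2* and the class II gene *H2-Aa*. These are matches of letters, and binding was not measured here.

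Class I and its loading genes made up nearly all of the MHC expression in these lines, and class II genes were close to absent. Of the 34 genes, 13 reached 1 RPKM in at least 3 of the 6 libraries and were tested, 12 had reads but stayed under that filter, and 9 had no read in any library. The tested genes ranged from *B2m*, at 421 RPKM in its highest line, to *H2-K2*, at 0.415 RPKM in its lowest. Among the 13, the line sg*Trp53* 2 was highest for 8 and lowest for none, while sg*Kmt2c* 1 was lowest for 9. Over all tested genes these lines held 19.0% of the highest and 35.9% of the lowest values.

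**Figure D1:**
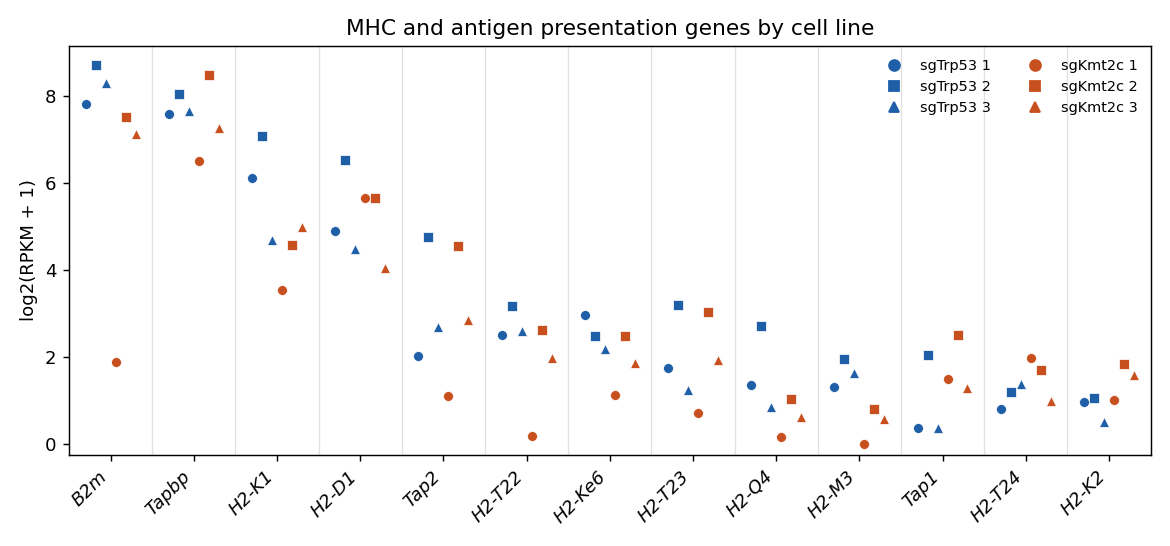
Level of the 13 tested MHC and antigen presentation genes in each of the 6 cell lines, as log2(RPKM + 1), with one point per line. Blue points are the sgTrp53 lines and orange points the sgKmt2c lines, and the isolated low point for B2m is sgKmt2c 1 at 2.71 RPKM.

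*B2m* (ENSMUSG00000060802, chr2:122147686-122153083 in GRCm38), which encodes the light chain shared by all classical class I molecules, was nearly missing from a single line. It was at 226, 421 and 316 RPKM with sg*Trp53* and at 2.71, 182 and 140 RPKM in sg*Kmt2c* 1, 2 and 3. All 3 sg*Kmt2c* values lay under the lowest sg*Trp53* value, but 2 of them were of its order of magnitude and the other was far below. The value in sg*Kmt2c* 1 rested on 11 reads, for which the exact 95% Poisson interval is 5.49 to 19.7 reads or 1.36 to 4.86 RPKM (counting error only), where the other lines had 515 to 1927 reads. The group means were 321 ± 97.7 RPKM and 108 ± 93.9 RPKM (SD, n = 3 lines each). The value in sg*Kmt2c* 1 was 51.6-fold under the next lowest line and 155-fold under the highest. Ranked against all genes with values, *B2m* stood at the 97.0th to 99.1st percentile in the other 5 lines and at the 53rd in sg*Kmt2c* 1. Of the 11617 tested genes 21, *B2m* among them, lay at least as far under every other line in sg*Kmt2c* 1, with genes of up to 3 reads there set at 3 reads. With that floor a gene at a low level in any other line could not reach this fold, so fewer genes than 11617 could be counted.

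The genes on either side of *B2m* were read in sg*Kmt2c* 1. *Spg11*, 29.3 kb away, was at 12.1, 14.1 and 10.9 RPKM with sg*Trp53* and at 11.98, 11.5 and 9.39 RPKM with sg*Kmt2c*. *Sord*, 81.7 kb away on the other side, was highest in sg*Kmt2c* 1, at 26.0 RPKM against 8.88 to 24.4 RPKM elsewhere. *Eif3j1* and *Ctdspl2*, the next genes, were at 16.6 and 9.20 RPKM there, each the lowest of its 6 values. *Casc4*, 212 kb away, was lower in sg*Kmt2c* 1 at 2.47 RPKM, against 11.4 to 17.3 RPKM in the other lines, and *Gatm*, 441 kb away, had no reads there. The 3 nearest tested genes, *Spg11*, *Sord* and *Eif3j1*, were thus read at 11.98 RPKM or more in the line where *B2m* was at 2.71 RPKM. The longest *B2m* transcript shares no stretch of 50 bases with another coding gene. Noncoding copies were not examined.

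**Figure D2:**
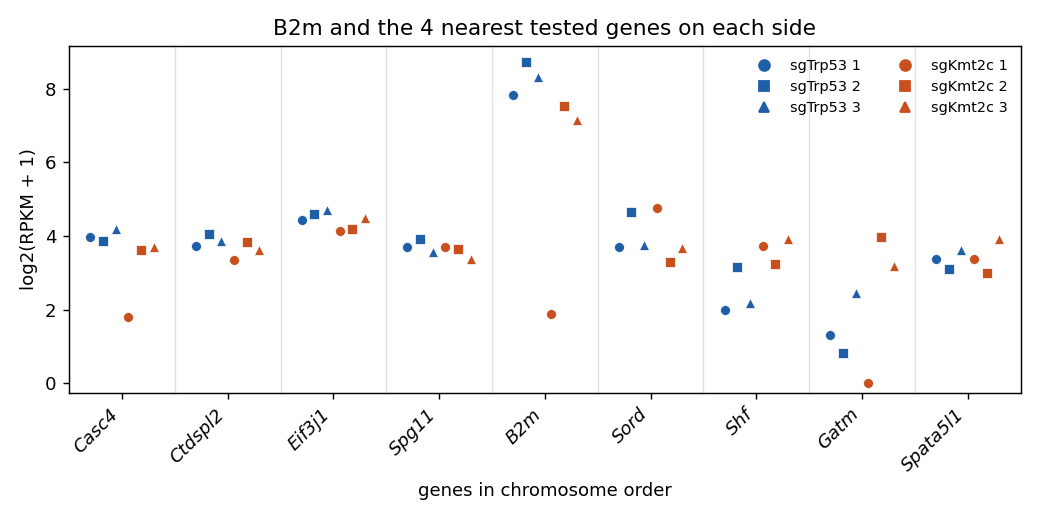
Level of B2m and of the 4 nearest tested genes on each side, in chromosome order, as log2(RPKM + 1) with one point per line. B2m in sgKmt2c 1 (11 reads) lies apart from its other 5 lines, while Spg11 spans only 9.39 to 14.1 RPKM.

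The ratio of *B2m* to the classical heavy chains, all per length, showed the same line. *B2m* RPKM was 2.32, 1.87 and 6.86 times the sum of *H2-K1* and *H2-D1* in the sg*Trp53* lines and 2.52 and 3.02 times in sg*Kmt2c* 2 and 3. In sg*Kmt2c* 1 it was 0.045 times that sum. Heavy chain RNA was therefore present in the line where the light chain was nearly missing.

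The classical heavy chains *H2-K1* and *H2-D1*, which display peptides to CD8 T cells, did not move together across the lines. *H2-K1* was at 68.7, 134 and 24.8 RPKM with sg*Trp53* and at 10.5, 22.98 and 30.8 RPKM with sg*Kmt2c*. Its lowest value was that of sg*Kmt2c* 1, its highest that of sg*Trp53* 2, and the genotypes overlapped only through sg*Trp53* 3 and sg*Kmt2c* 3. *H2-D1* was at 28.8, 90.8 and 21.3 RPKM against 49.8, 49.4 and 15.5 RPKM, so sg*Kmt2c* 1 was second highest for this gene. *H2-K1* exceeded *H2-D1* 2.39, 1.47 and 1.16-fold in the sg*Trp53* lines, and the ratio was 0.212, 0.465 and 1.99 in the sg*Kmt2c* lines. Of the 50-base windows of the longest *H2-K1* transcript 8.9% occur in another coding gene, and 14.3% of those of *H2-D1*, so how the counting treated shared reads leaves some uncertainty in both.

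The 4 class I genes of the T region were led by *H2-T22* and *H2-T23*. *H2-T22*, a ligand of gamma delta T cells, was at 4.71, 7.98 and 5.02 RPKM with sg*Trp53* and at 0.139, 5.14 and 2.90 RPKM with sg*Kmt2c*. The value in sg*Kmt2c* 1 came from 2 reads, against 38 to 130 in the others, so it shared the low line with *B2m* and *H2-K1*. *H2-T23*, which encodes Qa-1, the ligand of the inhibitory receptor NKG2A, was at 2.36, 8.11 and 1.37 RPKM against 0.643, 7.19 and 2.83 RPKM. It was high in line 2 of both genotypes and again lowest in sg*Kmt2c* 1. *H2-T24* ran the other way, at 0.751, 1.29 and 1.60 RPKM against 2.92, 2.24 and 0.965 RPKM, with sg*Kmt2c* 1 highest. *H2-T10* had at most 8 reads in any line. *H2-T22* and *H2-T10* are near copies, with 44.2% and 40.5% of their 50-base windows shared with other coding genes, and their reads may have been split between them.

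The Q region genes were mostly a property of 1 line. Summed over the 7 genes they reached 2.08, 13.5 and 0.952 RPKM with sg*Trp53* and 0.332, 1.25 and 0.522 RPKM with sg*Kmt2c*. *H2-Q4*, the only tested gene among them, was at 1.55, 5.56 and 0.809 RPKM against 0.118, 1.06 and 0.522 RPKM. *H2-Q7*, which encodes Qa-2, had 39 reads in sg*Trp53* 2 and at most 1 in any other line, and *H2-Q6* had 23 reads there and at most 1 elsewhere. *H2-Q5* had reads in sg*Trp53* 2 alone (3), *H2-Q10*, a secreted class I molecule that normal liver makes, had 0 to 5 reads per line, and *H2-Q1* and *H2-Q2* had none in any line. *H2-Q6* and *H2-Q7* share 13.9% and 20.7% of their windows with each other, so which of the pair was read in sg*Trp53* 2 is uncertain.

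*H2-M3*, which presents formylated peptides of bacteria and mitochondria, was at 1.48, 2.88 and 2.12 RPKM with sg*Trp53* and at 0, 0.755 and 0.488 RPKM with sg*Kmt2c*. These values were 13, 22 and 21 reads against 0, 4 and 3 reads, and the genotypes did not overlap. The gene passed the filter through its sg*Trp53* lines alone. Among the other M region genes, *H2-M5* had at most 1 read in a line and *H2-M2* and the pseudogene *H2-M6-ps* had none. *H2-K2*, a class I gene near *H2-K1*, was at 0.938, 1.08 and 0.415 RPKM against 1.01, 2.59 and 2.01 RPKM, on 3 to 10 reads a line.

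The genes of the transporter and of tapasin varied widely between lines of the same genotype. *Tap2* was at 3.05, 26.0 and 5.40 RPKM with sg*Trp53* and at 1.13, 22.4 and 6.22 RPKM with sg*Kmt2c*. *Tap1* was at 0.278, 3.12 and 0.295 RPKM against 1.797, 4.68 and 1.43 RPKM. Both transporter genes were highest in line 2 of each genotype, but in sg*Kmt2c* 1 *Tap1* was well above sg*Trp53* 1 and 3 while *Tap2* was lowest of all. *Tapbp*, the gene of tapasin, was at 191, 263 and 202 RPKM against 89.4, 360 and 153 RPKM, with sg*Kmt2c* 2 highest and sg*Kmt2c* 1 lowest. The deposited length of *Tapbp* is 413 bases and that of *Tap2* 376, where the longest coding transcripts have 2894 and 3442. On those lengths *Tapbp* would range from 12.8 to 51.4 RPKM and *Tap2* from 0.123 to 2.84 RPKM, so their levels against other genes depend on this choice, while comparisons between lines do not.

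Class II genes gave almost no reads. The 4 chain genes *H2-Aa*, *H2-Ab1*, *H2-Eb1* and *H2-Eb2* had 2 reads in all 6 libraries together, both of *H2-Eb1* in sg*Trp53* 2 and 3. The 5 genes of the loading factors *H2-DM* and *H2-DO* had 25 reads together, and *H2-DMa*, with 1 to 5 reads a line, was the only one read in every line. *Cd74*, the invariant chain of class II, was at 0 to 0.522 RPKM. *Ciita* had 2 reads in sg*Trp53* 1, 1 read each in sg*Kmt2c* 1 and 3, and none in the other 3 lines.

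*Nlrc5*, the transactivator of class I, was read mainly in sg*Trp53* 2. It had 67 reads there (1.81 RPKM) and 0 to 5 reads in the other 5 lines (0 to 0.195 RPKM), so it did not pass the filter. The genes of the immunoproteasome, the form of the proteasome that interferon induces, were looked at beside it, and *Psmb8* and *Psmb9* were singled out after their values were seen. *Psmb8* was at 0.604, 16.1 and 0.356 RPKM with sg*Trp53* and at 0, 0 and 0.287 RPKM with sg*Kmt2c*. *Psmb9*, whose start lies 226 bases from that of *Tap1* on the opposite strand, was at 0.243, 2.09 and 0.107 RPKM against 0.157, 0.402 and 0.173 RPKM. *Nlrc5*, *Psmb8*, *Psmb9*, *H2-Q6* and *H2-Q7* were thus all highest in sg*Trp53* 2, as were 19.0% of all genes tested. *Tap1* and *Irf1* were not highest there, with *Irf1* at 20.03, 30.8 and 34.5 RPKM against 5.66, 15.5 and 14.2 RPKM. In the same line the summed fibroblast markers were highest, at 986 RPKM against 0.282 to 166 RPKM in the other 5, led by *Col3a1* at 814 RPKM, and the summed epithelial markers were lowest, at 62.6 RPKM against 237 to 5811 RPKM. The part of this difference in the class I values was not tested.

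**Figure D3:**
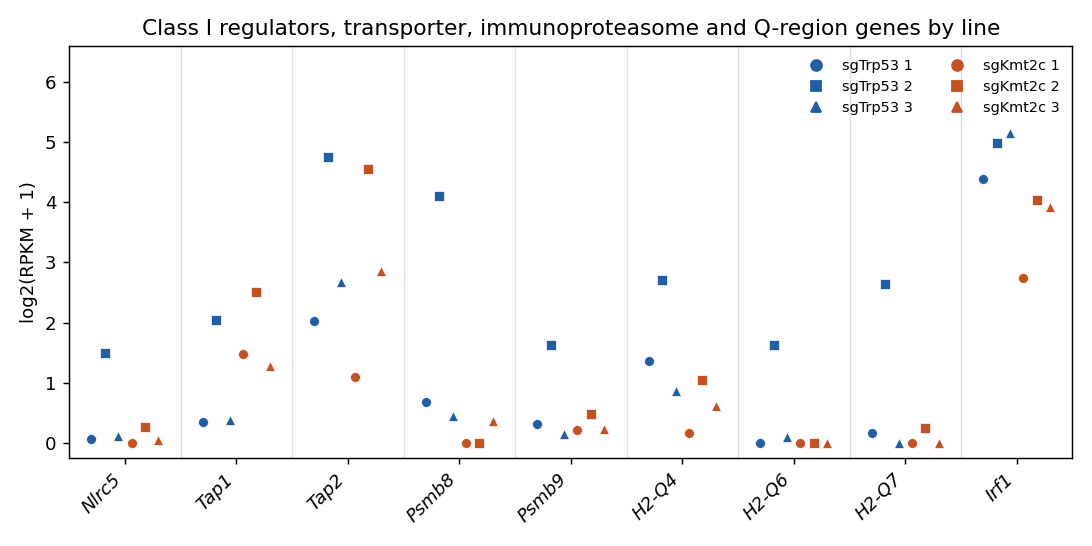
Level of class I transactivator, transporter, immunoproteasome and Q-region genes and of Irf1 in each cell line, as log2(RPKM + 1) with one point per line. sgTrp53 2 (blue square) is highest for Nlrc5, Tap2, Psmb8, Psmb9 and the 3 H2-Q genes, sgKmt2c 2 for Tap1 and sgTrp53 3 for Irf1.

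*H2-Ke6* bears the prefix because of its place in the MHC but encodes a hydroxysteroid dehydrogenase. It was at 6.76, 4.58 and 3.53 RPKM with sg*Trp53* and at 1.19, 4.57 and 2.63 RPKM with sg*Kmt2c*, on 3 to 22 reads a line, and was lowest in sg*Kmt2c* 1.

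Between the genotypes no MHC or antigen presentation gene passed an adjusted p-value of 0.05 (limma, 0 of 13 tested), where 0.129% of the 11617 genes tested passed. At an unadjusted p-value under 0.05 there were 2, *H2-K1* and *H2-M3*, both lower in the sg*Kmt2c* lines, and 8.58% of all genes passed that. *H2-M3* passed the filter through its sg*Trp53* lines alone, which favors lower sg*Kmt2c* values, so its counts here are not free of the filter. In *B2m* and *H2-M3* the genotypes did not overlap, with sg*Kmt2c* lower, which held for 10.4% of all genes tested. The median log2 fold change of the 13 was -0.35, with 10 below 0, and that of all genes was -0.086, with 58% below 0. It was -1.04 without sg*Kmt2c* 2. An exact permutation test of a single gene cannot go below 0.1 with 3 lines against 3. Every gene whose genotypes do not overlap reaches that value (two-sided), so for *B2m* and *H2-M3* it only restates the lack of overlap. Of the 11617 genes tested, 1877 did not overlap in either direction.

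The log2 fold change of *B2m* on the log2(RPKM + 1) scale was -2.77, with a 95% interval from -6.19 to 0.65 (adjusted p = 0.632, limma). Without sg*Kmt2c* 1 it was -0.96 (unadjusted p = 0.0187, adjusted p = 0.449, limma). *H2-M3* had -1.17 (interval -2.01 to -0.34, adjusted p = 0.450) and *H2-K1* -1.59 (interval -3.16 to -0.03, adjusted p = 0.580), both from limma. *H2-D1* was at -0.18 (adjusted p = 0.940), and its interval of -1.75 to 1.395 was wide in both directions. *H2-T22*, *H2-Q4* and *H2-Ke6* had -1.17, -1.04 and -0.72, and *Tapbp*, *Tap2* and *H2-T23* had -0.35, -0.32 and -0.17. The 3 genes above 0 were *Tap1* with 0.83, *H2-K2* with 0.64 and *H2-T24* with 0.42. The lowest adjusted p-value among these 9 genes was 0.635 (limma). The direction of *H2-D1*, *H2-T23*, *Tap2* and *Tapbp* turned when a line was left out, as listed in the closing section.

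**Figure D4:**
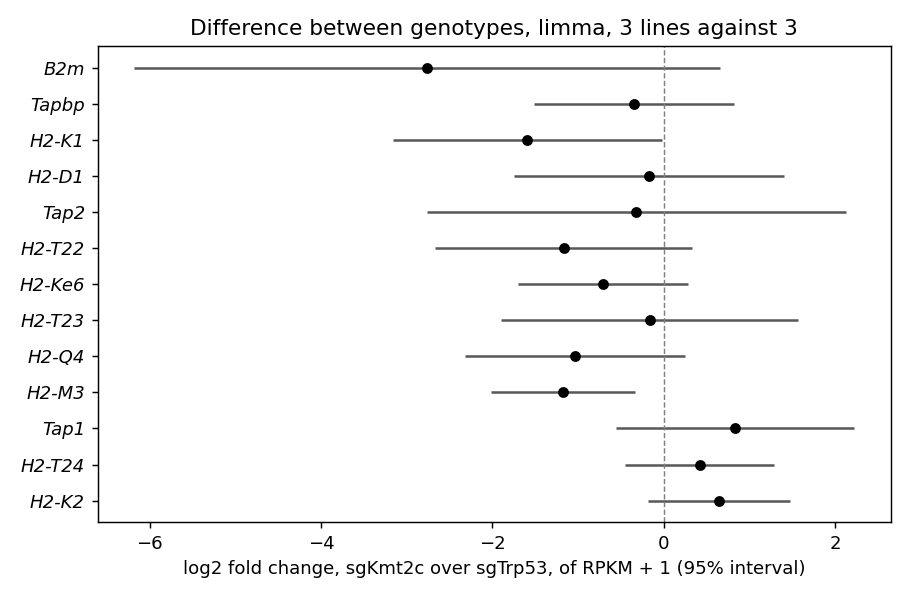
Log2 fold change of RPKM + 1 between the genotypes (sgKmt2c over sgTrp53) for the 13 tested genes, with points for the limma estimate and bars for its 95% interval. The bars of H2-K1 and H2-M3 end below 0 before adjustment over all genes, and B2m has the widest at -6.19 to 0.65.

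Markers of other cell types differed between the lines. The 12 immune markers summed to 52.3, 24.03 and 64.1 RPKM with sg*Trp53* and to 6.28, 5.51 and 16.9 RPKM with sg*Kmt2c*, so the genotypes did not overlap. Of the 12, 6 reached 1 RPKM in any line. In the sg*Trp53* lines and sg*Kmt2c* 3 most of the sum came from the macrophage genes *Lyz2* (29.0, 17.1 and 45.3 RPKM against 0, 0.214 and 12.4 RPKM) and *Csf1r* (10.0, 1.70 and 8.33 RPKM against 0.932, 0 and 0.967 RPKM). *Cd68* overlapped (7.60, 2.60 and 4.01 RPKM against 5.35, 5.29 and 1.71 RPKM) and made up most of the sum in sg*Kmt2c* 1 and 2. *Cd3e* and *Cd79a*, which define T and B cells, had no reads, and *Ptprc*, the gene of CD45 on all white blood cells, stayed at or below 0.065 RPKM. The class II chains, which macrophages can carry, had the 2 reads given above. The 8 fibroblast markers summed to 15.0, 986 and 166 RPKM against 0.282, 149 and 110 RPKM. The collagens *Col3a1* and *Col1a2* made up most of this in lines 2 and 3 of each genotype. In sg*Trp53* 1 the largest was *Dcn* at 7.39 RPKM, and in sg*Kmt2c* 1 *Col1a1* at 0.215 RPKM. The 5 endothelial markers summed to at most 0.284 RPKM in any line. The 5 epithelial markers summed to 990, 62.6 and 723 RPKM against 5811, 237 and 672 RPKM, and the keratins *Krt8* and *Krt18* in sg*Kmt2c* 1 were at 1662 and 2065 RPKM and *Epcam* at 27.0 RPKM. The 6 hepatocyte markers summed to 29.3, 4.89 and 18.5 RPKM against 1228, 2.04 and 173 RPKM. Except in sg*Kmt2c* 2 most of this was *Hnf4a*, whose share depends on its short listed length. The line with 11 *B2m* reads was thus the one with the most epithelial and hepatocyte marker RNA and the least fibroblast marker RNA. What part these markers have in the class I values was not tested.

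The rest of the pathway was read from 5 lists of genes outside the MHC set, which cut and load the peptides, process class II or control either class. Together with a list of ligands of immune receptors they named 67 genes, of which 62 had values and 48 were tested. None of the 48 passed the adjusted threshold (limma), 13 passed unadjusted (1 higher and 12 lower in the sg*Kmt2c* lines), and the median log2 fold change was -0.32. Among the 12, *Ctss* passed the filter through its sg*Trp53* lines, and *Mr1* and *Cd274* through theirs alone. This favors lower sg*Kmt2c* values, so the count of 12 is not free of the filter. Over all 11617 genes 8.58% passed unadjusted, 5.34% with sg*Kmt2c* lower, and the median was -0.086. The adjusted p-values began at 0.0644, that of *Ctsl* (limma).

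Of the peptide-cutting genes 7 of 9 were tested and all 7 had log2 fold changes below 0, 2 of them (*Psmb6* and *Psme2*) at an unadjusted p-value under 0.05, where 58% of all genes were below 0 and 8.58% passed. *Psmb6*, a catalytic subunit of the standard proteasome, was at 211, 312 and 188 RPKM with sg*Trp53* against 147, 138 and 152 RPKM (log2 fold change -0.67, adjusted p = 0.514, limma). *Psme3*, a proteasome activator, was at 370, 306 and 326 RPKM against 247, 295 and 450 RPKM. *Psmb10*, the third immunoproteasome subunit, had 33 to 132 reads a line, where *Psmb9* had 1 to 15, and was at 14.7, 19.5 and 14.5 RPKM against 5.51, 15.0 and 7.18 RPKM.

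All 8 loading genes were tested, 6 with values below 0 and 1 (*Sec61b*) at an unadjusted p-value under 0.05, where 58% of all genes were below 0 and 8.58% passed. The chaperone calreticulin (*Calr*) was at 288, 350 and 320 RPKM with sg*Trp53* against 220, 261 and 269 RPKM, without overlap (log2 fold change -0.35, adjusted p = 0.630, limma). *Pdia3*, the disulfide isomerase of the loading complex, was at 180, 304 and 274 RPKM against 211, 244 and 231 RPKM. *Sec61b*, part of the translocon, was at 99.4, 139 and 92.1 RPKM against 48.9, 63.5 and 92.9 RPKM. *Tapbpl*, which encodes the peptide editor TAPBPR, was at 2.86, 1.84 and 2.22 RPKM against 9.65, 3.69 and 2.78 RPKM, with sg*Kmt2c* 1 highest. The chaperones *Calr* and *Canx* and the isomerase *Pdia3* were therefore read at 154 RPKM or more in sg*Kmt2c* 1 as well, the line with 11 *B2m* reads.

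Of the class II pathway genes outside the MHC, 6 of the 10 with values were tested and 3 had an unadjusted p-value under 0.05, all lower in the sg*Kmt2c* lines, as did 5.34% of all genes. *Ctsl*, the lysosomal protease cathepsin L, was at 252, 269 and 243 RPKM with sg*Trp53* against 108, 99.0 and 114 RPKM (log2 fold change -1.25, interval -1.63 to -0.86, adjusted p = 0.0644, limma). Its lines were close within each genotype and far apart between them. *Lgmn*, the lysosomal protease legumain, was at 69.5, 89.5 and 37.3 RPKM against 20.8, 27.5 and 21.2 RPKM (log2 fold change -1.38, adjusted p = 0.388, limma). *Ctss*, cathepsin S, was at 1.69, 1.39 and 3.86 RPKM against 0, 0 and 1.04 RPKM, and passed the filter through its sg*Trp53* lines. *Ctsd*, cathepsin D, was the highest of the list, at 397, 307 and 434 RPKM against 682, 432 and 409 RPKM. Cathepsins L and D and legumain work in lysosomes of many cell types, while cathepsin S is found mainly in antigen-presenting cells. *Ctss* was lower in every sg*Kmt2c* line than in any sg*Trp53* line, as were 10.4% of all genes tested. Of the 3 tested immune markers *Lyz2* and *Csf1r* were also lower without overlap, while *Cd68* overlapped. *Csf1r* passed the filter through its sg*Trp53* lines alone, which favors lower sg*Kmt2c* values. A link between *Ctss* and these markers was not tested.

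Of the regulators of MHC transcription 12 of 13 were tested, 3 at an unadjusted p-value under 0.05, all lower in the sg*Kmt2c* lines, against 5.34% of all genes. *Irf1*, an interferon-induced activator of class I promoters whose values stand above, had the largest difference, without overlap (log2 fold change -1.27, adjusted p = 0.489, limma). *Nfya*, a subunit of the Y box factor NF-Y, was at 22.1, 25.2 and 30.4 RPKM against 12.7, 19.1 and 13.5 RPKM (log2 fold change -0.75, adjusted p = 0.487, limma). *Rfxap*, a subunit of the RFX complex on the X box, was at 14.1, 17.4 and 13.6 RPKM against 9.33, 6.90 and 11.4 RPKM. *Creb1* was even, at 65.8, 64.4 and 70.8 RPKM against 63.8, 63.1 and 67.4 RPKM, and *Rela*, a subunit of NF-kappa B, was at 46.3, 41.5 and 50.8 RPKM against 34.9, 39.6 and 35.8 RPKM.

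Of the 10 interferon signalling genes 9 were tested and 1 had an unadjusted p-value under 0.05, near the 8.58% of all genes. This was *Jak1*, a kinase of both interferon receptors, at 39.8, 58.1 and 46.2 RPKM with sg*Trp53* against 19.8, 36.8 and 32.0 RPKM (log2 fold change -0.71, adjusted p = 0.573, limma). *Irf9* was at 22.6, 36.1 and 29.7 RPKM against 19.9, 27.1 and 9.65 RPKM. *Ifngr1*, a chain of the interferon gamma receptor, was at 24.9, 25.5 and 38.1 RPKM against 145, 18.6 and 21.9 RPKM. *Jak2*, its kinase, was at 11.9, 10.6 and 13.6 RPKM against 43.4, 12.6 and 12.9 RPKM and was named after its values were seen. Receptor and kinase were thus highest in sg*Kmt2c* 1, while *Irf1*, *Nlrc5* and *B2m* were lowest there. Of all genes tested this line was highest for 23.6% and lowest for 35.9%.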

How the data were processed

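RNA-seq of 6 mouse liver tumor cell lines was analysed, 3 *Myc*; sg*Trp53* and 3 *Myc*; sg*Kmt2c*, grouped and numbered by the sample labels. The study states that the lines of a genotype come from different mice. Since the labels give sg*Kmt2c* 2 and 3 related names, they were also averaged, as an alternative. Libraries came from an Illumina TruSeq RNA kit. The authors trimmed with Trimmomatic, aligned with STAR (GRCm38), counted genes with HTSeq and gave the result as RPKM, whose deposited values rest on one listed transcript length per gene. How reads that fit several genes were counted, and whether strand was used, is not given in the sources used here. The table has 21065 rows, 209 of them without values, and 6 further sample columns that were not used. A second deposited table, the authors' own DESeq2 test (mean counts, log2 fold changes, p-values), was left out.

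RPKM multiplied by length came in whole steps for 100.0% of values (tolerance 0.01 of a read), which gave reads per gene. Replicates differed far beyond sampling noise, so none was counted as a copy. Genotypes were compared with limma 3.58.1 (R 4.3.3) on log2(RPKM + 1), with eBayes and a mean-variance trend, over the 11617 genes at 1 RPKM or more in at least 3 of 6 libraries, with Benjamini-Hochberg adjustment over all of them. The script was tested on simulated data. P-values measure the spread between these lines. Poisson intervals and small read numbers cover counting error only. Shared 50-base windows and longest coding transcripts came from GENCODE vM1, promoters from RefSeq. Plots were drawn with matplotlib 3.10.9.

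The genes and lists were chosen with earlier results of these data known. All tested MHC genes are named, and from each other list the 2 highest and the 2 with the largest log2 fold change. *Psmb8*, *Psmb9*, *Psme2*, *Rfxap*, *Jak2*, *Cd74*, *Canx*, the neighbours of *B2m* and the ligands *Cd274*, *Cd1d1* and *Cd80* fall outside that rule and were named after their values were seen. Alternatives changed the pseudocount, filter, scaling, moderation and values tested, added a replicate block, or left out each line in turn.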

Additional observations from a re-analysis of the deposited data

How the results depend on the processing

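No MHC or antigen presentation gene and no gene of the 6 lists passed an adjusted p-value of 0.05 (limma) under any of the 17 alternatives, and the lowest adjusted p-value of a member was 0.336, for *H2-M3* without sg*Kmt2c* replicate 3. The number of members at an unadjusted p-value under 0.05, 2 as reported, was 1 without a filter on low values, with median-of-ratios scaling, without the trend, with limma voom on the recovered reads and after averaging sg*Kmt2c* replicates 2 and 3, and 5 with the replicate block. It was 1 to 5 when a line was left out, 1 without sg*Trp53* replicate 1 and 5 without sg*Kmt2c* replicate 2. The median log2 fold change was -1.04 to -0.21 when a line was left out, lowest without sg*Kmt2c* replicate 2. *B2m* had -3.77 without sg*Kmt2c* replicate 2 and -0.96 without replicate 1. Log2 fold changes turned positive for *H2-T23* with quantile normalization (0.11), for *Tap2* (0.48), *H2-T23* (0.40) and *H2-D1* (0.43) without sg*Trp53* replicate 2, for *Tapbp* (0.11), *Tap2* (0.55) and *H2-T23* (0.43) without sg*Kmt2c* replicate 1, and for *H2-D1* (0.36) without sg*Kmt2c* replicate 3. At the other end, leaving out a line gave -0.59 for *H2-D1* (sg*Trp53* replicate 3), and leaving out sg*Kmt2c* replicate 2 gave -0.89 for *Tapbp*, -1.18 for *Tap2* and -0.73 for *H2-T23*. The other 9 members kept their sign under all 17. Apart from the lines left out, the cause of these changes was not tested.

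The replicate numbers are not known to pair the lines: deviations of same-numbered lines correlated at 0.192, 0.399 and 0.032, and not every line correlated best with its own number. With the replicate block 0 of all genes passed the adjusted threshold, against 15 without it, and 1085 passed unadjusted, against 997. At these depths a read on a 2 kb transcript is worth 0.0726 to 0.136 RPKM, so members under the filter rest on few reads and a missing read does not show absence.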

Other observations

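Genes for ligands of receptors on T and natural killer cells, and for the class I-like molecules that present lipids and metabolites, were listed separately. Of 15 such genes 12 had values, 6 were tested and 0 passed an adjusted p-value of 0.05 (limma, lowest adjusted p = 0.328), while 3 had an unadjusted p-value under 0.05, against 8.58% of all genes. Of these 3, *Mr1* and *Cd274* passed the filter through their sg*Trp53* lines alone. *Raet1e*, a ligand of the activating receptor NKG2D, was at 1.77, 1.90 and 1.47 RPKM with sg*Trp53* and at 4.57, 4.98 and 4.44 RPKM with sg*Kmt2c* (log2 fold change 1.06, adjusted p = 0.328, limma). It was the only ligand of the 6 tested for which every sg*Kmt2c* line lay above every sg*Trp53* line, which held for 665 of the 11617 genes tested. Its values rested on 16 to 34 reads a line. Its listed span on chromosome 10 takes in other genes of this list, so how reads were counted there leaves some uncertainty. *Mr1*, which presents vitamin B metabolites, was at 1.83, 3.57 and 1.08 RPKM against 0, 0.828 and 0.159 RPKM (log2 fold change -1.22, adjusted p = 0.509, limma). *Cd274*, the gene of PD-L1, was at 1.54, 3.17 and 1.92 RPKM against 0.352, 0.449 and 0.904 RPKM (log2 fold change -1.02, adjusted p = 0.489, limma). *Mr1* pairs with beta-2 microglobulin, as does the lipid-presenting CD1d, whose gene *Cd1d1* was at 3.56, 9.56 and 4.33 RPKM against 0.576, 8.46 and 3.49 RPKM. Both were lowest in sg*Kmt2c* 1, the line with 11 *B2m* reads, as were 35.9% of all genes tested. A link with *B2m* was not tested.

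*Cd47*, which holds back macrophages, was at 15.6, 20.3 and 19.3 RPKM against 33.5, 27.7 and 15.3 RPKM, and *Pvr*, a ligand of TIGIT and DNAM-1, at 16.99, 11.2 and 18.4 RPKM against 31.2, 18.4 and 18.4 RPKM. Both overlapped between the genotypes. *Cd80*, a co-stimulatory molecule, had no reads in the sg*Trp53* lines and was at 0.499, 6.22 and 4.40 RPKM with sg*Kmt2c*. It did not pass the filter, since 2 lines reached 1 RPKM.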
